A study of Mus musculus with 2 samples.

Results

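The genes described here are 9 mouse genes that odontoblasts and osteoblasts use to build and mineralize dentin and bone, namely *Dspp*, *Dmp1*, *Ibsp*, *Spp1*, *Mepe*, *Phex*, *Alpl*, *Runx2* and *Sp7*. They were chosen by name, and all spots other than controls whose gene name in the scanner files is one of the 9 were taken. This gave 12 probes of 60 bases, and the 9 genes are among 21244 genes with a RefSeq symbol on the array. RNA came from incisors of wild-type (WT) mice and of *Sox21* KO mice, which lack the transcription factor Sox21, and was labelled with Cy3 and hybridized to Agilent SurePrint G3 arrays, with 1 array per genotype. The sample labels give postnatal day 0 for both, whereas the methods of the study give day 1. The methods name C57BL/6J as the wild-type strain. The strain background of the KO mice, their sex, and whether 1 animal or a pool gave the RNA are not given in the sources used here. The labels call the tissue incisor, and the design text speaks of both ameloblasts and whole tooth germs.

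Dentin and bone are both collagen scaffolds into which cells secrete acidic phosphoproteins, and calcium phosphate then fills the scaffold. Odontoblasts of the dental mesenchyme lay down dentin on the inner side of the ameloblasts, and osteoblasts lay down the alveolar bone around the tooth germ. The products of *Dspp*, *Dmp1*, *Ibsp*, *Spp1* and *Mepe* are secreted phosphoproteins of this matrix, Phex is a membrane peptidase whose loss causes phosphate wasting, Alpl is the phosphatase that removes the mineralization inhibitor pyrophosphate, and Runx2 and Sp7 (osterix) are the transcription factors that commit cells to the osteoblast lineage. *Dspp* is the gene of this set most typical of dentin, and *Dmp1* is used by odontoblasts and osteocytes. *Ibsp* and *Spp1* are typical of bone, and *Mepe*, *Phex*, *Alpl*, *Runx2* and *Sp7* are used in bone and, to differing degrees, in teeth.

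The 5 phosphoprotein genes lie side by side on chromosome 5, in the order *Dspp*, *Dmp1*, *Ibsp*, *Mepe* and *Spp1*. The brightest probes of these genes start within 259 kb of each other in the mm9 coordinates of the array design, from the *Dspp* probe at chr5:104609044-104609103 to the *Spp1* probe at chr5:104868502-104868561, and all probe positions below are in mm9. Promoter sequence of 7 of the 9 genes, with 10 start sites in all, was taken from RefSeq on GRCm38.p6. The 250 bases before the start are shown for the 4 phosphoprotein genes among them, since these genes share both their neighbourhood and the direction of their values below. Capitals mark ATTGG, which is the CCAAT box on the opposite strand, TTTAAAT, and the core Runx motif TGTGGT or its reverse ACCACA.
Dmp1, downstream start, chr5:104202367-104202616, plus strand: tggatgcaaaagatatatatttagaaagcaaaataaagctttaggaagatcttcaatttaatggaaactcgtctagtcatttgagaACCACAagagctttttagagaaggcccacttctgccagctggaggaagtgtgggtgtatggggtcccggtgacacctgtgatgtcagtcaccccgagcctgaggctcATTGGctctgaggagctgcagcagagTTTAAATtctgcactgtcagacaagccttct
Ibsp, chr5:104299037-104299286, plus strand: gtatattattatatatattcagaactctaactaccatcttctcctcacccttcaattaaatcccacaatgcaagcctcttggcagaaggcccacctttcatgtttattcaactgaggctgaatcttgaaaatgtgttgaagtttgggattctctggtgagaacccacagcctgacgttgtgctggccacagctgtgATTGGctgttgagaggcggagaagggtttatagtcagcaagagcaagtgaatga
Mepe, chr5:104325079-104325328, plus strand: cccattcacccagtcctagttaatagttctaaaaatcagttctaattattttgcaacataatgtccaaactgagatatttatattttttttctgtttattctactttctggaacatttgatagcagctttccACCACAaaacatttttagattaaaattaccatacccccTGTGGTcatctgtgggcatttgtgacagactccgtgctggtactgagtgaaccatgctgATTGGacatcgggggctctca
Spp1, upstream start, chr5:104434861-104435110, plus strand: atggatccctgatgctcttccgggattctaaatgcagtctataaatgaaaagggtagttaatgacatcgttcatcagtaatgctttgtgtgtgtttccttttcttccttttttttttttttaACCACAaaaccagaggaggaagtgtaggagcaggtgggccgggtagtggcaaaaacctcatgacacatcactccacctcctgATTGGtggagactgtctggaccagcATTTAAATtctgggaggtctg

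In these windows ATTGG began 57 bases before the downstream *Dmp1* start, 54 before the *Ibsp* start, 21 before the *Mepe* start and 46 before the upstream *Spp1* start. The starts shown for *Dmp1* and *Spp1* are those that hold all of the marked motifs. At the upstream *Dmp1* start, not shown, ATTGG began 101 bases before the start, and the downstream *Spp1* start had 0 matches of it. Neither of these held TTTAAAT or TGTGGT. Both strands were searched. The motifs were picked after these sequences had been read and the sequences with the values known, so the shares over all promoters are given for scale and nothing is read from the comparison. ATTGG or its reverse occurred at 5 of the 10 starts, all of them of the 4 genes shown and none of *Phex*, *Alpl* or *Runx2*, and in 33.8% of 32817 RefSeq promoters of the same length. TTTAAAT or its reverse occurred at 2 of the 10 starts, of *Dmp1* and *Spp1*, and in 5.24% of all promoters. TGTGGT or its reverse occurred at 4 starts, of *Dmp1*, *Mepe*, *Spp1* and *Runx2*, and in 14.0% of all promoters. The homeodomain core TAATTA was found in *Mepe* and at the downstream start of *Spp1*, against 4.85% of all promoters, and the SOX motif ACAATG or its reverse in *Ibsp* and at the upstream start of *Dmp1*, against 10.696%. In *Spp1* the matches of TTTAAAT on the 2 strands overlap. Such matches describe the letters and are not binding sites.

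Each processed signal, the spot's brightness after the scanner software had removed background, was divided by the 75th percentile of its array, which was 268 on the WT and 276 on the KO array. The quotient is called the normalized signal, and the log2 ratio is KO minus WT. The error given with a signal is that of the scanner software for the spot, and the error of a ratio was propagated from the errors of its 2 spots. It was nearly the same share of the signal at all 12 probes, so the errors of their log2 ratios ran only from 0.20 to 0.22. A limit in scanner errors is therefore close to a fixed limit on the log2 ratio of these probes, and is not a spread between repeat spots. With 1 array per genotype no difference has a replicate check, no test was run, and these errors cover the spots only. For the 294 measured probes with repeat spots, the SD of the log2 ratio over the spots of 1 probe had a median of 0.09. All 12 probes were well above background on both arrays, none was saturated (0 spots), and none was marked as an outlier. Of the genes on the array, 13805 were well above background on both arrays and are called measured, and the median log2 ratio over them was 0.01. A gene with several probes is represented by its brightest measured probe. The targeted gene *Sox21* still gave signal on the KO array, with a normalized signal of 5.09 on the WT and 2.39 on the KO array at the brighter probe and a log2 ratio of -1.09. Its other measured probe had 1.07 and 0.375, a log2 ratio of -1.51.

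In *Sox21* KO incisors, 5 of the 9 genes, *Dmp1*, *Spp1*, *Phex*, *Mepe* and *Ibsp*, had log2 ratios between 0.55 and 0.93, each beyond 2 scanner errors, as were 5.55% of all measured genes in this direction. The other 4, *Dspp*, *Alpl*, *Sp7* and *Runx2*, lay within 0.1 of no difference at their brightest probes, as did 36.5% of all measured genes. The dimmer probes of *Dspp* and *Runx2* lay outside that limit, at 0.28 and 0.24. Lower by more than 2 scanner errors were 0 of the 9 genes and 5.29% of all measured genes. On the KO array, 4 of the 9 genes were higher by 1.5-fold or more, as were 3.2% of all measured genes, and 0 of the 9 were at least 1.5-fold lower, as were 2.98% of all measured genes. *Ibsp* also passed 1.5-fold under the median scaling and with the mean over its probes, and under the background correction described below *Ibsp* passed it and *Mepe* fell short, so that the count was again 4. None of the 9 was 2-fold apart (0 genes), against 0.739% of all measured genes at least 2-fold higher and 0.666% at least 2-fold lower. Under the median scaling 1 was, *Dmp1* at 1.01, beside 129 of the 13805 measured genes at least 2-fold higher. The median of the 9 genes was 0.55. Above 0 were 7 of the 9 genes and 52.4% of all measured genes, but the signs of *Dspp*, *Alpl* and *Sp7* change with the scaling. With the median of each array in place of its 75th percentile, 65.6% of measured genes were above 0. In RNA of whole tissue, more cells of a type and more RNA per cell cannot be told apart.

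**Figure D1:**
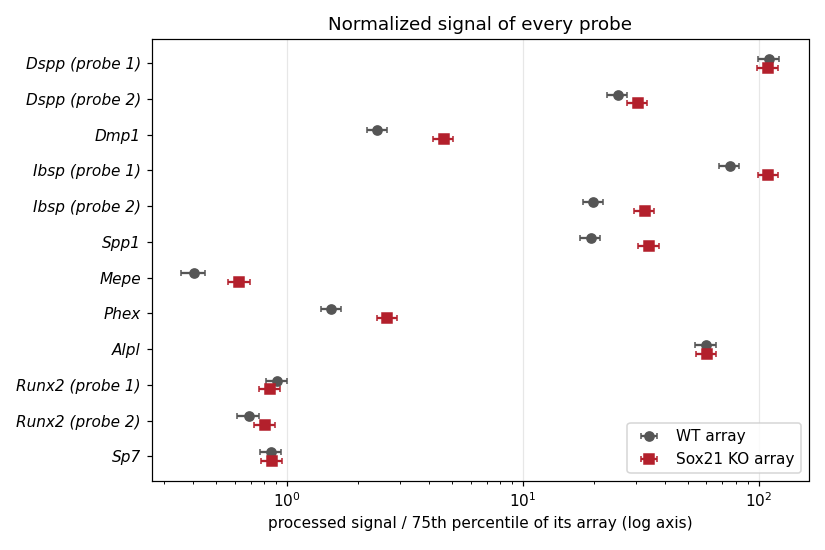
Normalized signal (log axis, in units of the array's 75th percentile) of each of the 12 probes on the WT array (grey circles) and the *Sox21* KO array (red squares), with bars for the scanner error; probe 1 is the brighter where a gene has 2. The WT and KO points stand apart for *Dmp1*, *Ibsp*, *Spp1*, *Mepe* and *Phex* and nearly coincide for *Alpl*, *Sp7* and probe 1 of *Dspp*, and levels are not comparable between probes.

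Among the matrix phosphoproteins, *Dspp*, whose product is cut into dentin sialoprotein and dentin phosphoprotein, differed between the arrays by less than its error at the brighter probe. Its normalized signal there was 110.3 ± 11.0 (scanner error) on the WT array and 109.7 ± 11.0 on the KO array, which gives a log2 ratio of -0.01 ± 0.20. The dimmer probe, at chr5:104607570-104607629, gave 25.2 ± 2.52 and 30.6 ± 3.06, a log2 ratio of 0.28 ± 0.20. The *Dspp* probes thus differed by 0.29, against an error of 0.29 for that difference. The dimmer probe is shown because it spans the end of the repeat of serine and aspartate codons in dentin phosphoprotein, with capitals for the repeat unit AGTGAC. Its bases in small letters are not copies of the unit.
Dspp, dimmer probe, mm9, plus strand: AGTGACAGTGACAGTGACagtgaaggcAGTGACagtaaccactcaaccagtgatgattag
The probe holds 4 copies of the unit and reads as 20 triplets, of which the last is the only stop triplet. At least 3 copies of AGTGAC were found in 5 probes of the array, and 1 of them is named for *Dspp*. How far other repeats add to its signal was not tested.

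*Dmp1*, an acidic protein of odontoblasts and osteocytes that nucleates mineral and takes part in phosphate control, had the highest ratio of the 9 genes. Its normalized signal was 2.41 ± 0.24 on the WT array and 4.60 ± 0.46 on the KO array, for a log2 ratio of 0.93 ± 0.20 or 1.91-fold. Of all measured genes, 0.920% had a higher ratio. *Dmp1* and *Dspp*, neighbours whose probes lie 33.9 kb apart, therefore differed in their ratio by more than the scanner error of either, and so they did with the dimmer *Dspp* probe described above.

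*Ibsp*, the integrin-binding sialoprotein (bone sialoprotein) of newly forming bone, was higher on the KO array at both of its probes. The brighter probe, at chr5:104740413-104740472, had normalized signals of 75.3 ± 7.53 and 109.9 ± 11.0, a log2 ratio of 0.55 ± 0.20. The dimmer probe, which starts 693 bases upstream, had 19.9 ± 1.99 and 32.8 ± 3.28, a log2 ratio of 0.72 ± 0.20. The *Ibsp* probes differed by 0.18, less than the 0.29 error of their difference.

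*Spp1* encodes osteopontin, a mineral-binding phosphoprotein made by osteoblasts and also by osteoclasts and macrophages. Its normalized signal was 19.3 ± 1.93 on the WT array and 34.2 ± 3.42 on the KO array, for a log2 ratio of 0.82 ± 0.20. *Mepe*, an extracellular phosphoglycoprotein of osteocytes and odontoblasts, had low processed signals, of 107.4 ± 12.1 and 173 ± 18.0. Its normalized signal went from 0.401 to 0.627, a log2 ratio of 0.65 ± 0.22. The normal-exponential correction of background, which draws the ratios of weak spots toward 0, gave 0.40 for *Mepe*.

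**Figure D2:**
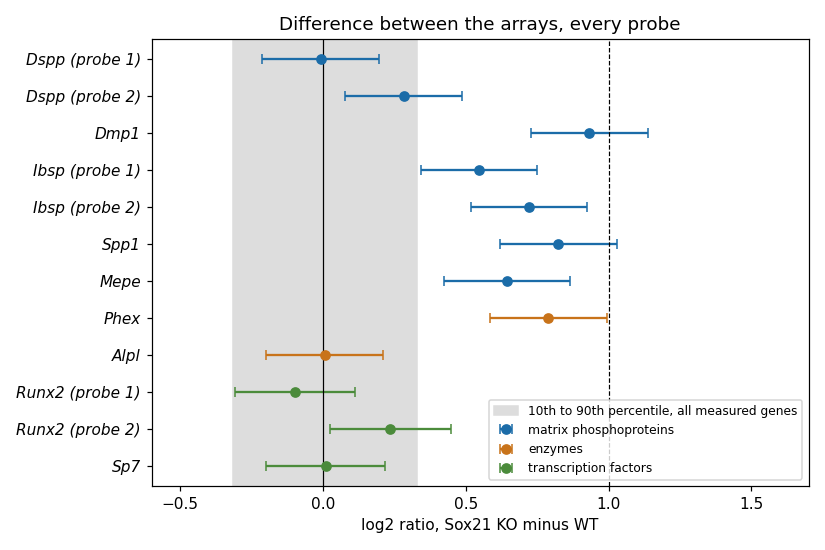
Log2 ratio (*Sox21* KO minus WT) of each of the 12 probes, coloured by the role of the gene, with bars for the propagated scanner error; the grey band spans the 10th to 90th percentile of all measured genes, from -0.32 to 0.33, and the dashed line marks 2-fold. The probes of *Dmp1*, *Ibsp*, *Spp1*, *Mepe* and *Phex* lie to the right of the band and all others within it.

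Along the cluster, *Dmp1*, *Ibsp*, *Mepe* and *Spp1* had log2 ratios between 0.55 and 0.93, and *Dspp*, at one end, had -0.01 and 0.28 at its 2 probes. Above 0 were thus 4 of the 5 genes at their brighter probes, beside 52.4% of all measured genes, and 5 of 5 under the median scaling, quantile normalization or the mean over probes. The flanking protein-coding genes were looked up in the RefSeq order. *Sparcl1*, a relative of *Sparc* next to *Dspp*, had a log2 ratio of 0.23, and *Nudt9* on that side had -0.13. Further out on the same side *Hsd17b11*, a steroid dehydrogenase, had 0.51. On the far side of *Spp1*, *Pkd2*, the polycystin channel gene, had 0.19 and *Thoc2l* had -0.07. The measured flanking genes thus went both ways.

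**Figure D3:**
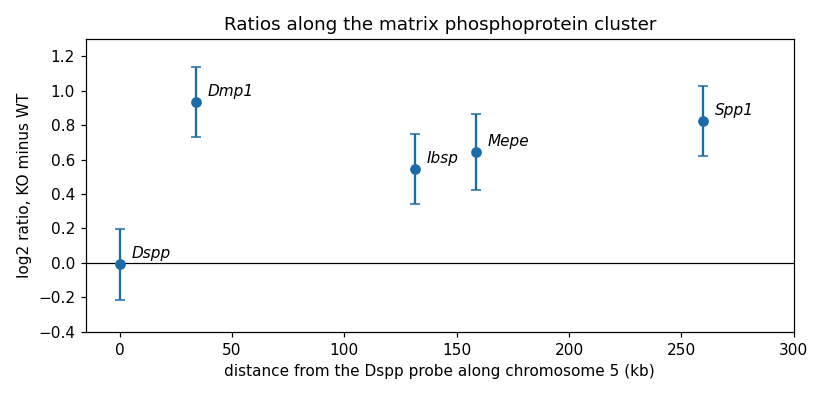
Log2 ratio (*Sox21* KO minus WT, with scanner error) of the 5 matrix phosphoprotein genes against the distance of the probe from that of *Dspp* along chromosome 5, in kb. *Dspp* lies at -0.01 and the other 4 genes between 0.55 and 0.93.

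The enzymes went separate ways. *Phex*, whose probe lies at chrX:153596731-153596790 (mm9), had normalized signals of 1.54 ± 0.15 and 2.66 ± 0.27, a log2 ratio of 0.79 ± 0.20. *Alpl*, the tissue-nonspecific alkaline phosphatase at chr4:137297658-137297716, had 59.8 ± 5.98 and 60.0 ± 6.0, a log2 ratio of 0.01 ± 0.20. The signals of *Phex* on the 2 arrays thus stood apart by more than their errors, and those of *Alpl* did not.

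The transcription factors were about equal on the arrays. *Sp7*, which acts downstream of Runx2, had normalized signals of 0.855 ± 0.09 and 0.861 ± 0.09, a log2 ratio of 0.01 ± 0.21. *Runx2* has 2 probes that lie 206203 bases apart. The brighter one, at chr17:44951128-44951187 on the minus strand, holds the ATG that begins the protein made from the distal promoter, the isoform typical of osteoblasts. It is shown from that ATG, in capitals, to the end of the probe.
Runx2, 48 bases of the brighter probe: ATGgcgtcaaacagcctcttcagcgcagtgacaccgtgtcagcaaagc
This probe had normalized signals of 0.901 ± 0.09 and 0.842 ± 0.09, a log2 ratio of -0.10 ± 0.21. The dimmer probe, downstream at chr17:44744925-44744984, had 0.686 ± 0.07 and 0.808 ± 0.08, a log2 ratio of 0.24 ± 0.21. The *Runx2* probes thus had opposite signs, and their difference of 0.33 compares with an error of 0.30, so no direction is given for this gene.

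Both the dentin and the bone genes included values near 0 and values above 0.5. *Dspp* and *Dmp1*, taken as the dentin genes, had a median log2 ratio of 0.46 that is the midpoint of -0.01 and 0.93. The 7 bone genes had a median of 0.55 and ranged from -0.10 for *Runx2* to 0.82 for *Spp1*. The difference of the medians, dentin minus bone, was -0.08 and was not tested. It lay between -0.11 and -0.01 under the processing alternatives, and it was -0.60 with *Dspp* alone against the other 8 genes. With *Mepe* and *Phex* counted with *Dspp* and *Dmp1*, as genes found in odontoblasts too, it was 0.71, so the direction rests on where these genes are put.

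**Figure D4:**
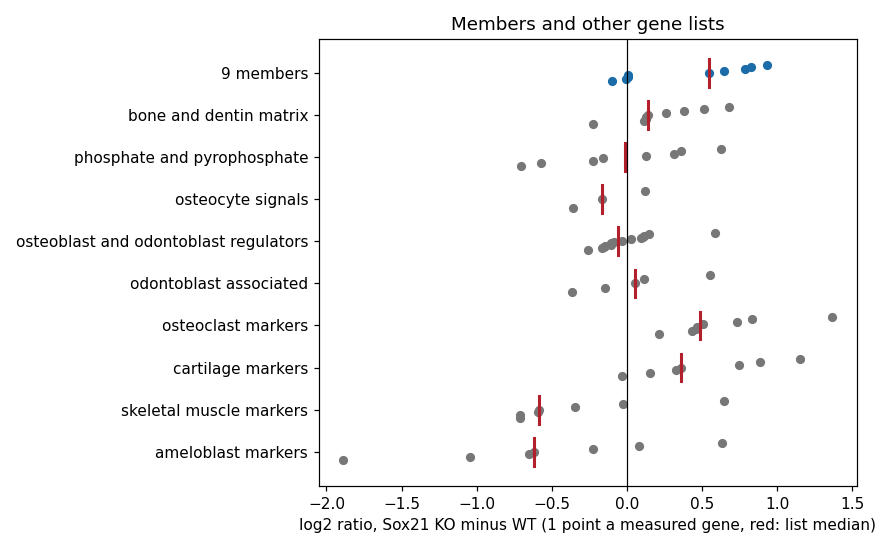
Log2 ratio (*Sox21* KO minus WT) of the 9 genes (blue) and of the measured genes of 9 other lists (grey), 1 point a gene at its brightest measured probe, with the list median in red. All 8 osteoclast markers lie above 0, and the regulators of osteoblasts and odontoblasts run from -0.26 to 0.58.

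Of 9 other genes of mineralized matrix, all measured, 8 had a log2 ratio above 0, beside 52.4% of all measured genes, and the median was 0.14, which lay between 0.13 and 0.22 under the alternatives. At least 1.5-fold higher was 1 of the 9, beside 3.2% of all measured genes, and under the median scaling 2 were, with *Omd*. The 1 gene was *Ifitm5*, a membrane protein of mineralizing osteoblasts, which had normalized signals of 1.35 and 2.16, a log2 ratio of 0.68. *Omd* (osteomodulin) had 0.51, while *Col1a1* and *Col1a2*, the chains of type I collagen, had 0.11 and 0.26, and *Sparc* (osteonectin) had 0.13. *Bglap* and *Bglap2*, near-identical osteocalcin genes whose transcripts may share probe sequence, had 0.13 and 0.14. *Serpinh1*, the collagen chaperone, was the lower gene at -0.23.

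Of 9 genes of phosphate and pyrophosphate handling, 8 were measured, with 4 above 0 and 4 below, beside 52.4% and 47.6% of all measured genes, and a median of -0.02 that lay between -0.03 and 0.06 under the alternatives. *Smpd3*, a sphingomyelinase needed for mineralization, was at least 1.5-fold higher at 0.63, but under the normal-exponential correction 0 genes of this list were. *Slc20a1*, a phosphate transporter, was at least 1.5-fold lower at -0.71, with normalized signals of 16.4 and 10.1. Of all measured genes, 3.2% were at least 1.5-fold higher and 2.98% at least 1.5-fold lower. *Fam20c*, the kinase that phosphorylates secreted matrix proteins including those above, had -0.57 at its brighter and -0.22 at its dimmer probe, and with it 2 genes were at least 1.5-fold lower when the 75th percentile was taken without control spots. *Enpp1*, which makes pyrophosphate, had 0.31 and 0.83 at its 2 probes. *Mgp*, the matrix Gla protein that inhibits mineralization, had -0.22. *Ahsg* stayed near background on both arrays and was not measured.

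The counts of the next lists are to be read against the same shares of all measured genes, 52.4% above 0, 47.6% below 0, and 3.2% and 2.98% at least 1.5-fold higher and lower. The osteocyte signals gave 1 higher and 2 lower genes of 3 measured, with a median of -0.17 that lay between -0.27 and -0.09 under the alternatives. *Fgf23*, the phosphate-lowering hormone, had a log2 ratio of -0.36 at a probe with normalized signals of 44.8 and 34.9, whereas its other probe, like the probe of *Sost*, was near background on both arrays. Of 14 regulators, all measured, 6 were higher, 8 lower and 0 at least 1.5-fold apart, with a median of -0.06 that lay between -0.07 and 0.02 under the alternatives. *Vdr*, the vitamin D receptor, had the highest ratio of these at 0.58, just short of 1.5-fold, and under the median scaling 1 regulator was at least 1.5-fold higher. *Atf4* had the lowest at -0.26. Of 6 genes associated with odontoblasts, which include *Nfic* and *Dlx3* already counted among the regulators, 5 were measured, 3 of them higher, 2 lower and 0 at least 1.5-fold apart, with a median of 0.06 that lay between 0.03 and 0.13 under the alternatives. Under the median scaling 1 of these was at least 1.5-fold higher. *Panx3* had 0.55 and *Wnt10a* had -0.36.

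Markers of other cell types are given beside these values, and their counts are to be read against the shares of all measured genes, 52.4% above 0, 47.6% below 0, 3.2% at least 1.5-fold higher and 2.98% at least 1.5-fold lower. All 8 osteoclast markers were measured and had log2 ratios above 0, with a median of 0.49. At least 1.5-fold higher were 3 of the 8. Their summed normalized signal, most of it from *Acp5* and *Ctsk*, was 756 on the WT and 939 on the KO array. *Calcr*, the calcitonin receptor, had 1.36 among them, *Mmp9* had 0.83, *Ocstamp* had 0.73, and *Ctsk* and *Acp5*, which encode cathepsin K and tartrate-resistant phosphatase, had 0.47 and 0.21. Of 8 cartilage markers, 7 were measured, of which 6 were above 0 and 3 at least 1.5-fold higher, with a median of 0.36 and summed signals of 14.7 and 23.0, most of them from *Col2a1*. *Ihh* had 1.15, *Comp* 0.89 and *Col2a1*, the type II collagen gene, 0.74, and *Matn1* was near background on both arrays. All 7 were above 0 under the median scaling, quantile normalization or the normal-exponential correction. Of 8 skeletal muscle markers, 7 were measured, of which 6 were below 0 and 4 at least 1.5-fold lower, with a median of -0.59 and summed signals of 61.8 and 42.8. Most of these sums came from *Tnnc2* and *Acta1*. The count at least 1.5-fold lower was 2 under the median scaling and 3 under quantile normalization or the normal-exponential correction. *Ckm* and *Tnnt3* both had -0.71 and *Acta1* and *Tnnc2* both had -0.59, whereas *Myh3*, the embryonic myosin gene, had 0.64 and 0.59 at its 2 probes. *Mylpf* was near background on both arrays. All 7 ameloblast markers, genes of the enamel-forming cells of the labelled tissue, were measured, and 5 of them were below 0, with a median of -0.62 and summed signals of 3162 and 2866. Most of these sums came from *Amelx*, *Ambn* and *Enam*. *Amtn* had -1.89, *Klk4* -1.05, *Enam* -0.65 and *Mmp20* -0.62, all at least 1.5-fold lower as reported. Under the median scaling 2 of the 7 were, without *Enam* and *Mmp20*, and under the normal-exponential correction 3 were. *Odam* went the other way, with 0.63 and 0.55 at its 2 probes, and *Amelx*, the amelogenin gene, had 0.08. The part of these cell types in the higher values of *Dmp1*, *Ibsp*, *Spp1*, *Mepe* and *Phex* was not tested.

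**Figure D5:**
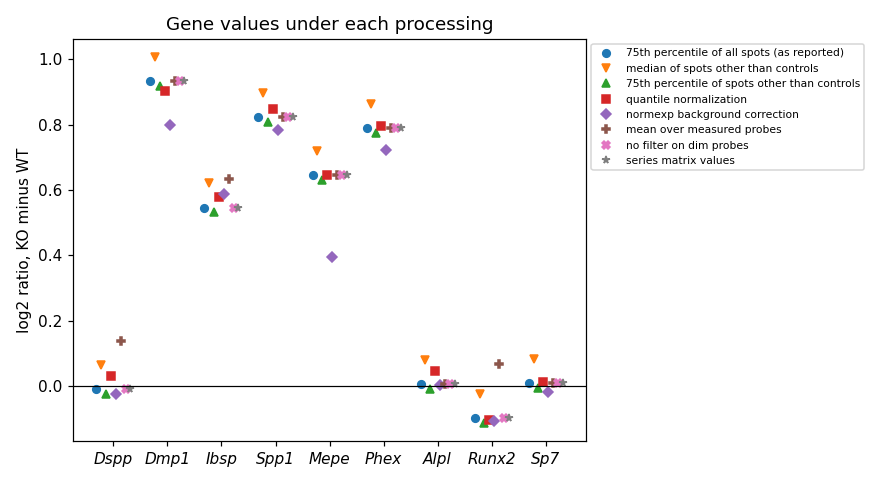
Log2 ratio (*Sox21* KO minus WT) of each of the 9 genes under the processing as reported and 7 alternatives, 1 symbol each. *Dmp1*, *Ibsp*, *Spp1*, *Mepe* and *Phex* stay between 0.40 and 1.01 throughout, and *Dspp*, *Alpl*, *Runx2* and *Sp7* stay between -0.11 and 0.14.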

How the data were processed

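RNA from P0 incisors of 1 WT and 1 *Sox21* KO sample was measured on 1 one-colour array each. The authors deposited, for each spot, intensity values from Agilent Feature Extraction 10.7.3.1 (processed signal, its error, raw mean and local background), and linear ratios, in which 1 number per array divides every processed signal. That number differs from the 75th percentile over all 62976 spots by 0.0092% on the WT and 0.00616% on the KO array; the methods name a percentile shift without the percentile. Both arrays share a slide.

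Here, log2 of the signal over that percentile was averaged over a probe's spots, leaving out 267 outlier spots, for 55679 probes. A probe was measured when the scanner marked it well above background on both arrays. Probes were named through RefSeq (GRCm38.p6): 26298 by accession, 2044 by symbol, 355 by an older symbol and 26982 not. Coordinates of probes are those of mm9 in the files. The genes and lists were chosen with earlier results of these data known. The rule for naming list genes takes those at least 1.5-fold apart or with the highest signal, and further genes were named after their values were seen. The steps were tested on simulated data. Versions were limma 3.58.1 in R 4.3.3, and pandas 2.3.3 with numpy 2.4.6 in Python 3.11.15.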

Additional observations from a re-analysis of the deposited data

How the results depend on the processing

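Values were recomputed under each alternative, and a value counted as moved when it shifted by more than 0.086, the median SD between repeat spots, whose 90th percentile was 0.27. The 5 genes *Dmp1*, *Ibsp*, *Spp1*, *Mepe* and *Phex* were higher on the KO array under the alternatives that could move them, which were 4 of scaling and background correction and, for *Ibsp* with its 2 probes, the mean over probes. Dropping the filter and taking the deposited ratios could not, since all 9 genes were measured and the divisor is nearly the same. In contrast, the sign of *Dspp*, *Alpl*, *Sp7* and *Runx2* was not kept. *Runx2* went from -0.10 to 0.069 with the mean over its probes, where the construction averages probes of opposite sign. With that mean the median of the bone genes was 0.63, and with the normal-exponential correction 0.40. Dentin minus bone lay between -0.11 and -0.01 under the processing alternatives, and was -0.60 for *Dspp* alone and 0.71 for *Dspp*, *Dmp1*, *Phex* and *Mepe*, by the choice of members. The number of genes past 2-fold was 1 under the median scaling, which lifted *Dmp1* to 1.01. With 1.5-fold as the limit it was 4 as reported and 5, with *Ibsp*, under the median scaling or the mean over probes. Under the normal-exponential correction it was 4, with *Ibsp* at 0.59 in and *Mepe* at 0.40 out. The number above 0 was between 5 and 9. No paired analysis was possible because each genotype has 1 array. The number of arrays limits the precision, and weak signal limits *Mepe* most.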
